A study of Mus musculus with 144 samples.

Results

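The data described here are 6 whole-liver RNA-seq libraries taken at ZT 16 under reverse-phase feeding, 3 from mice with hepatocyte REV-ERB double knockout and 3 from controls, out of 144 libraries in the series. They were chosen by label alone: the genotype, the time and the feeding schedule. ZT is zeitgeber time, the hours counted from lights on, and reverse-phase feeding usually means that food is offered in the light phase, when mice normally rest. No label gives the hours of access to food or the light schedule.

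The knockout mice were male C57BL/6J mice on normal chow that lacked REV-ERB a and b in adult hepatocytes, under reverse-phase feeding, sampled at ZT 16. The controls were male C57BL/6J mice labelled WT, on the same chow, schedule and time. In the deposited table the knockout columns carry the name CRE and the control columns the name GFP. No label says what was delivered, if anything. Any difference between CRE and GFP livers beside the genotype cannot be told apart from it. The promoter that drives Cre, the deleted exons and the ages are not given in the labels, and no label ties a library to an animal, so that p-values measure only the spread between libraries. For comparison, 42 libraries of the other 7 times under reverse-phase feeding and 6 libraries of ZT 16 under ad libitum feeding (3 knockout, 3 control, the same strain, sex and chow) were used. Whole liver holds cells other than hepatocytes, which keep both genes by the labels.

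REV-ERBα and REV-ERBβ are nuclear receptors that repress transcription by recruiting the NCoR-HDAC3 complex. They bind the same DNA element as the ROR activators, and in the clock they hold down Arntl, Npas2 and other genes for part of the day. In liver they are also known for control of lipid, bile acid and glycogen metabolism.

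Counts over genes, with 1 transcript kept for each, ran from 17608477.5 to 21693495 in the 6 libraries, with 15470 to 15778 genes above 0, and the 45S ribosomal transcript Rn45s took 0.150% to 0.583% of them. None of the 6 stood more than 3 median absolute deviations from the other reverse-phase libraries in the slope of expression on transcript length or in the distance from its group. Alb, the hepatocyte marker albumin, had 67593, 66829 and 69291 CPM in knockout livers, against 63118, 73943 and 88265 CPM in control livers. CPM here are counts scaled to a common library size with TMM, and 3 values in a row are those of libraries 1, 2 and 3.

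Of the targeted genes, Nr1d1 (REV-ERBα; mm9 chr11:98629246-98636691, minus strand) had 115, 131 and 139 CPM in knockout livers, against 88.6, 69.5 and 46.5 CPM in control livers. The log2 fold change of knockout over control was 0.91 ± 0.29 (SE, n = 3 each), and it was not called (adjusted p = 0.0861, from edgeR's quasi-likelihood test with Benjamini-Hochberg adjustment over all 13814 genes tested; under 0.05 counts as called). Nr1d2 (REV-ERBβ; mm9 chr14:19036570-19071620, minus strand) had 103, 93.8 and 92.0 CPM in knockout livers, against 58.2, 58.6 and 46.8 CPM in control livers, a log2 fold change of 0.82 ± 0.14 (adjusted p = 0.000206). For both genes every knockout library lay above every control library. The counts cover the whole transcript, so RNA that lacks the deleted exons is counted too, and these values do not check the deletion. Knockout and control stand below for the libraries with those labels.

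The clock genes are shown first with their promoters, since 5 of the called ones, Cry1, Bhlhe41, Per3, Nfil3 and Tef, hold the DNA letters of the clock's own elements, and 4 of these are printed. E-boxes (CACGTG) are bound by BMAL1 with CLOCK or NPAS2, D-boxes (TTANGTAA) by DBP, TEF, HLF and NFIL3, and the element of REV-ERB and ROR has the core TAGGTCA. The windows are the 250 bases before the gene start, 5′ to 3′ along the gene, from RefSeq on GRCm38.p6, with motif matches on either strand in capitals. The Cry1 window (chr10:85185055-85185304 on the minus strand) and the Bhlhe41 window (chr6:145865421-145865670 on the minus strand) each hold 1 E-box. The Per3 window (chr4:151044666-151044915 on the minus strand) holds 2 D-boxes. The Nfil3 window (chr13:52981040-52981289 on the minus strand) holds the REV-ERB/ROR core on the other strand, read here as TGACCTA.
Cry1: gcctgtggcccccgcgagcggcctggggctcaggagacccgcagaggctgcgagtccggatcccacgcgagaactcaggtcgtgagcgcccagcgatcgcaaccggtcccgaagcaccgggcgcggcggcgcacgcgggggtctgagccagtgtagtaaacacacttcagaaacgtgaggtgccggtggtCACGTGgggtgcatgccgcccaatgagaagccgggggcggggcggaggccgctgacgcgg
Bhlhe41: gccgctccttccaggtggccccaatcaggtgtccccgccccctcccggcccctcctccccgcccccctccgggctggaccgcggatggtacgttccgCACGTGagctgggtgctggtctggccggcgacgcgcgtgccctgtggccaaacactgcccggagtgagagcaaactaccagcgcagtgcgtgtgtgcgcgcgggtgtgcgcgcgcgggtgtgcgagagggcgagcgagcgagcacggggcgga
Per3: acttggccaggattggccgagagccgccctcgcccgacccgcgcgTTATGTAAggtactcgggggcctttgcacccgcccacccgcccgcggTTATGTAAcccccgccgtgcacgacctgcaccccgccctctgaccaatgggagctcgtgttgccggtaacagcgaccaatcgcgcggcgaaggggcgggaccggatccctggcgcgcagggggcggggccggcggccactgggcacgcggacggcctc
Nfil3: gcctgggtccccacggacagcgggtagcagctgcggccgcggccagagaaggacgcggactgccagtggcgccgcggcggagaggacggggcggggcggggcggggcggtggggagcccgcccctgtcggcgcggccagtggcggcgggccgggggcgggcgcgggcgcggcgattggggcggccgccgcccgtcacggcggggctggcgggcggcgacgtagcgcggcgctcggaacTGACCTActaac

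Counting from -1 as the base before the start, the first base of the match stood at -60 in Cry1, -153 in Bhlhe41, -205 and -158 in Per3, and -12 in Nfil3. Tef, not printed, has 1 E-box in each of 2 windows on chromosome 15, at -127 and -138. The other called clock genes, Arntl, Npas2, Cry2, Nr1d2 and Dbp, had no match or no window. E-boxes also stood in clock genes that were not called, at -116, -58 and -44 in Ciart and at -166 in Per1. TAGGTCA also stood at -109 in the acute-phase gene Itih4, which fell in knockout livers. Of 186 genes called higher in knockout livers, 138 had a window. So had 135 genes called lower and 10458 of all genes tested. A gene with a match in any of its windows was counted once, so genes with more windows had more chances to match. CACGTG was in 17.4%, 8.89% and 9.71% of these sets of genes, in that order. TAGGTCA was in 2.90%, 2.96% and 2.28% of the same sets. TTANGTAA was in 2.17%, 3.70% and 1.77%. Repeats of the half-site GGTCA in the same orientation with 3 or 2 bases between them can overlap the core. They were in none of the windows of called genes and in 0.096% and 0.191% of all genes tested with a window. These shares describe letters in short windows and were not tested.

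Core clock genes rose in knockout livers. Of 19 members, 10 rose and 0 fell, against 1.35% of all genes tested called higher and 1.32% called lower. The median log2 fold change of the list was 0.82, against -0.0021 for all genes tested. The lists and their members were chosen with earlier results of these data known.

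Among the activators, Npas2, the partner of BMAL1 that can replace CLOCK (mm9 chr1:39251117-39420085, plus strand), had 15.1, 19.6 and 18.7 CPM in knockout livers, against 4.09, 5.45 and 4.91 CPM in control livers. The groups lay far apart, with a log2 fold change of 1.89 ± 0.23 (adjusted p = 1.09e-06). Arntl, which encodes BMAL1, had 46.4, 47.0 and 45.4 CPM in knockout livers, against 20.4, 28.0 and 28.9 CPM in control livers (0.85 ± 0.23, adjusted p = 0.0334). Its call was lost without any single knockout library and without control 1 or 2, with log2 values of 0.70 to 0.91 and adjusted p up to 0.233. Clock, with a log2 fold change of 0.15 ± 0.18, was not called, and its groups overlapped.

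Among the repressors, Cry1 (mm9 chr10:84594445-84647799, minus strand), whose product blocks BMAL1 with its partner, had 40.7, 65.4 and 56.0 CPM in knockout livers, against 11.9, 15.8 and 19.9 CPM in control livers. This is a log2 fold change of 1.77 ± 0.22 (adjusted p = 1.06e-06). Its relative Cry2 rose by less, with 41.5, 43.2 and 51.4 CPM in knockout livers and 30.0, 32.7 and 33.4 CPM in control livers (0.50 ± 0.13, adjusted p = 0.0297). The Cry2 call was lost without knockout 2 or 3 or any control, with adjusted p up to 0.187.

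The 3 Period genes, partners of the cryptochromes, differed. Per3 had 10.8, 14.2 and 14.3 CPM in knockout livers and 5.32, 4.39 and 2.52 CPM in control livers, a log2 fold change of 1.67 ± 0.39 (adjusted p = 0.0118) that was 1.43 without control 3 (adjusted p = 0.0795). Per2 had 12.98, 12.2 and 11.2 CPM in knockout livers and 8.65, 7.11 and 5.51 CPM in control livers, and was not called (0.77 ± 0.31, adjusted p = 0.236). Per1 was the only clock gene with a lower mean in knockout livers and no overlap: 12.3, 4.70 and 12.8 CPM in knockout livers, against 19.5, 21.7 and 22.4 CPM in control livers, without a call (-1.10 ± 0.43, adjusted p = 0.227). Bhlhe41 (DEC2), a repressor that binds E-boxes, had 6.37, 8.53 and 15.2 CPM in knockout livers and 1.71, 1.19 and 0.599 CPM in control livers (3.07 ± 0.53, adjusted p = 0.000409). The Bhlhe41 call was lost in a fit of the 6 libraries alone with a block for replicate number (adjusted p = 0.0578). Its relative Bhlhe40 (0.49 ± 0.23) and the repressor Ciart (1.47 ± 0.60) were not called, and their groups overlapped.

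The D-box factors carry the clock's phase to many liver genes. Dbp (mm9 chr7:52960617-52965573, plus strand) had 60.4, 92.8 and 118 CPM in knockout livers, against 14.0, 7.82 and 3.23 CPM in control livers. This was the largest clock difference, 3.42 ± 0.46 on the log2 scale (adjusted p = 1.11e-05). The Dbp call was lost in a fit of the 6 libraries alone (adjusted p = 0.0564), and in that fit with a block for replicate number (adjusted p = 0.324). Tef had 134, 139 and 134 CPM in knockout livers and 83.3, 68.1 and 55.7 CPM in control livers (0.98 ± 0.19, adjusted p = 0.00125). Nfil3, which competes with DBP at D-boxes, had 101, 134 and 120 CPM in knockout livers and 48.6, 77.9 and 79.6 CPM in control livers. Its log2 fold change of 0.79 ± 0.19 (adjusted p = 0.0143) was not called without knockout 2 (0.69), without control 1 (0.59) or in a fit of the 6 libraries alone, with adjusted p up to 0.182. Hlf, the other D-box activator, had a value of 0.38 ± 0.19 without a call.

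Rora, an activator that shares the REV-ERB element, had 67.4, 62.5 and 63.0 CPM in knockout livers, against 54.0, 75.6 and 66.8 CPM in control livers. Its groups overlapped, with a log2 fold change of -0.03 ± 0.17 (adjusted p = 0.988). None of the 6 NCoR-HDAC3 members and none of 12 clock kinases and ubiquitin ligases was called, with medians of -0.05 and 0.03.

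**Figure D1:**
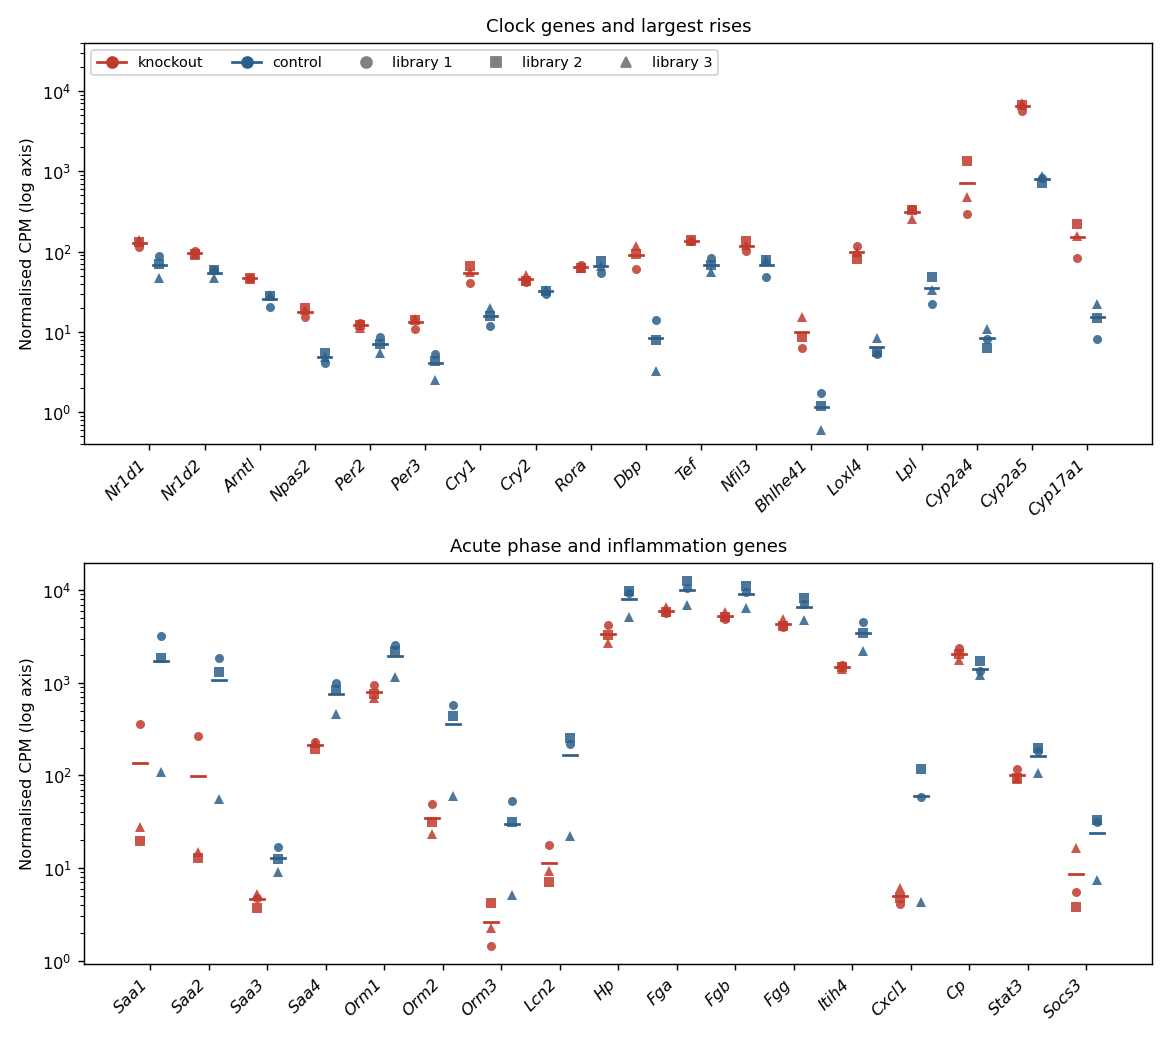
Normalised CPM on a log axis in each library at ZT 16 under reverse-phase feeding, knockout left of control for each gene, with bars at the group means and symbols for libraries 1, 2 and 3. Above, Dbp, Bhlhe41 and Npas2 are separated between groups while Rora overlaps. Below, control 3 lies under controls 1 and 2 in acute-phase genes such as Orm2 (60.6 against 577 and 434 CPM).

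Over all genes, 368 of 13814 (2.66%) were called, 186 higher (1.35%) and 182 lower (1.32%) in knockout livers. The counts of called list members below are to be read beside these shares, and no list was tested as a set. The median of all log2 fold changes was -0.0021. Of the called genes, 118 rises and 146 falls reached 1.5-fold. The count of 368 was 182 without control 1, 185 without control 2, 190 without knockout 2, 222 without knockout 3 and 158 in a fit of the 6 libraries alone.

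The largest rises included a cytochrome P450 pair. Cyp2a5, a coumarin hydroxylase, had 5581, 6712 and 6997 CPM in knockout livers, against 815, 722 and 876 CPM in control livers. It was 7.99-fold higher (log2 2.999 ± 0.278, adjusted p = 3.16e-09), and it was called under all 14 alternatives. Cyp2a4, a steroid 15α-hydroxylase, had 298, 1349 and 474 CPM in knockout livers and 8.08, 6.28 and 10.8 CPM in control livers (6.40 ± 1.01, adjusted p = 0.000145). Its call was lost in a fit of the 6 libraries alone with a block for replicate number (adjusted p = 0.137). The 2 genes are near-identical copies, so reads could be split between them, and knockout 2 stood above the other knockout libraries in Cyp2a4 only.

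Loxl4, a lysyl oxidase that crosslinks matrix proteins (mm9 chr19:42666769-42687296, minus strand), had 117, 81.3 and 97.5 CPM in knockout livers and 5.32, 5.69 and 8.51 CPM in control livers (3.93 ± 0.26, adjusted p = 2.11e-13). Lpl, lipoprotein lipase, which adult hepatocytes normally make little of, had 339, 333 and 252 CPM in knockout livers and 22.5, 48.4 and 33.7 CPM in control livers (3.14 ± 0.54, adjusted p = 0.000483). For both genes the groups did not overlap, and neither call was lost under any of 14 alternatives. The citrate and succinate carrier Slc13a2 (3.001 ± 0.389, adjusted p = 3.31e-06), Hectd2 (2.90 ± 0.32, adjusted p = 2.89e-07) and the noncoding transcript B930025P03Rik (3.97 ± 0.51, adjusted p = 2.67e-06) also rose. The B930025P03Rik call was lost in a fit of the 6 libraries alone with a block for replicate number (adjusted p = 0.160). Cyp17a1, a steroid 17α-hydroxylase, had 82.4, 223 and 157 CPM in knockout livers and 8.17, 15.0 and 22.2 CPM in control livers (3.36 ± 0.79, adjusted p = 0.0132). Its call was lost without knockout 2, control 1 or control 2, with adjusted p up to 0.105.

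Apart from 4 acute-phase genes taken up below, the largest falls were in genes of varied function. Slc22a7, the organic anion transporter OAT2, had 7.07, 2.46 and 2.11 CPM in knockout livers and 41.6, 28.3 and 24.7 CPM in control livers (-3.03 ± 0.56, adjusted p = 0.000962). Gsta1, a glutathione transferase, had 2.26, 0.711 and 1.82 CPM in knockout livers and 15.6, 15.9 and 15.3 CPM in control livers (-3.29 ± 0.73, adjusted p = 0.00720; -2.93 and adjusted p = 0.0727 without knockout 2). Fgl1, a hepatokine also made in the acute phase, had 340, 158 and 132 CPM in knockout livers and 1784, 1929 and 732 CPM in control livers (-2.82 ± 0.53, adjusted p = 0.00123). Isyna1, which makes inositol phosphate from glucose 6-phosphate (-2.46 ± 0.42, adjusted p = 0.000313), and Wfdc2 (-2.48 ± 0.50, adjusted p = 0.00221) fell too. In a fit of the 6 libraries alone the adjusted p was 0.0674 for Fgl1 and 0.144 for Isyna1. Rad51b fell by 2.74 ± 0.72 on the log2 scale (adjusted p = 0.0294) from low counts, and its call was lost without any single library other than control 3 (adjusted p up to 0.136).

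**Figure D2:**
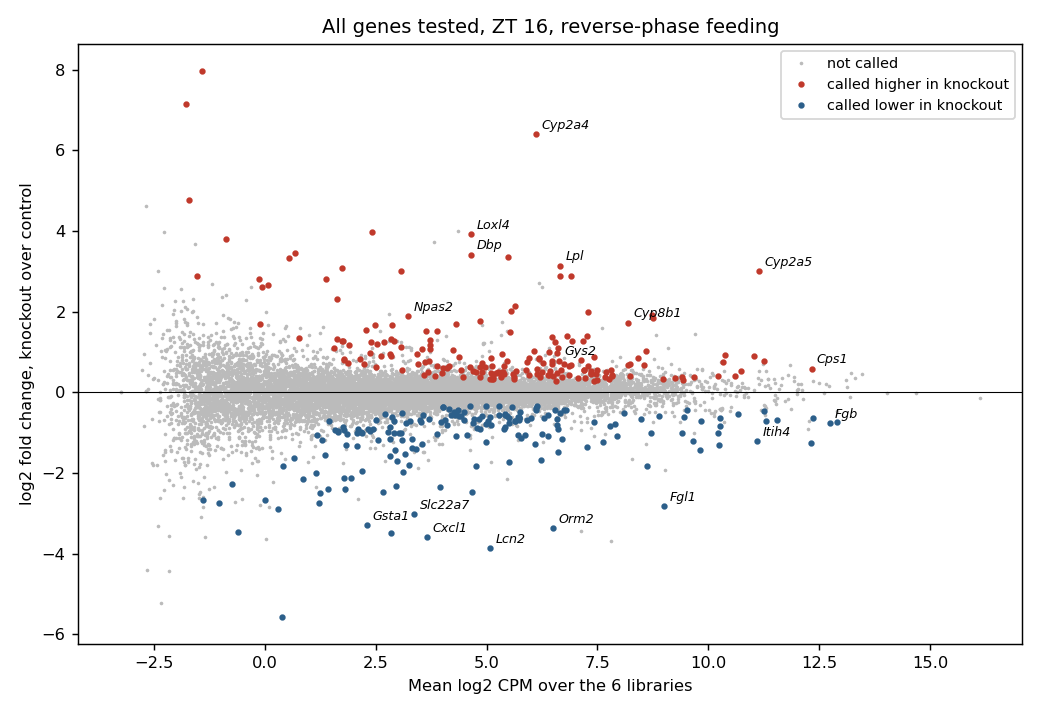
Log2 fold change of knockout over control (vertical) against the mean log2 CPM over the 6 libraries (horizontal) for the 13814 genes tested, with the 186 called rises and 182 called falls in colour. Cyp2a4 stands highest among the labelled rises and Lcn2 lowest among the labelled falls, and fibrinogen Fgb lies far right among the falls.

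A few genes that build glycogen rose. Of 21 glycolysis and glycogen genes, 3 were called higher and 0 lower (list median 0.21), namely Ugp2, Gys2 and Ppp1r3c. Of all genes tested, 1.35% were called higher and 1.32% lower. Ugp2, which makes UDP-glucose, had 491, 676 and 499 CPM in knockout livers and 248, 247 and 321 CPM in control livers (1.03 ± 0.19, adjusted p = 0.000962). Gys2, the liver glycogen synthase (mm9 chr6:142371133-142421629, minus strand), had 142, 130 and 123 CPM in knockout livers, against 71.8, 71.0 and 85.5 CPM in control livers (0.79 ± 0.15, adjusted p = 0.00146). Both genes were called under all 14 alternatives. Ppp1r3c, a glycogen-targeting subunit of protein phosphatase 1, had 179, 211 and 189 CPM in knockout livers and 94.8, 60.1 and 82.4 CPM in control livers (1.28 ± 0.31, adjusted p = 0.0158). It was not called without knockout 2 (1.22) or control 2 (1.12), with adjusted p up to 0.124. The 15 gluconeogenesis genes held no call (median -0.07), though a second test, DESeq2, called 2, against 473 of all 13814 genes tested.

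Amino acid and NAD genes rose in part. Tdo2, the first enzyme of tryptophan breakdown, had 2778, 3511 and 3359 CPM in knockout livers and 1526, 1898 and 2154 CPM in control livers (0.79 ± 0.15, adjusted p = 0.00142). Kynu, kynureninase of the same path, had 381, 376 and 363 CPM in knockout livers and 209, 263 and 223 CPM in control livers (0.69 ± 0.12, adjusted p = 0.000379). Kynu was called in all 14 alternatives, and Tdo2 in all but the fit of the 6 libraries alone (adjusted p = 0.0701). With them the NAD list had 2 rises and 1 fall of 18 (median 0.13), the fall being Naprt, which makes NAD from nicotinic acid (-0.43 ± 0.12, adjusted p = 0.0307, not called in 9 of 14 alternatives). Of 24 urea cycle and amino acid genes, 3 rose and 0 fell (median 0.29), among them Tdo2 and the urea cycle enzyme Cps1 (0.59 ± 0.16, adjusted p = 0.0300). The Cps1 call was lost without knockout 1 or 2 or control 1 or 2, with adjusted p up to 0.215.

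Nuclear genes of oxidative phosphorylation had small positive differences, few of which passed the test. Of 74, 6 rose and 0 fell, 72 had a positive log2 fold change, and the median was 0.27. Ndufs1, the large subunit of complex I, had 178, 181 and 171 CPM in knockout livers and 110, 117 and 133 CPM in control livers (0.56 ± 0.08, adjusted p = 1.62e-05; 0.0521 in a fit of the 6 libraries alone). The other rises were Ndufv1 of complex I (0.44 ± 0.12), Sdha of complex II (0.37 ± 0.09), Uqcrc2 of complex III (0.41 ± 0.10), and Atp5a1 (0.41 ± 0.10) and Atp5b (0.41 ± 0.10) of the ATP synthase. The Ndufv1 and Uqcrc2 calls were lost without knockout 2 or 3 or control 1 or 2. The count of 6 rises was 11 without knockout 1, 12 without control 3, 3 without knockout 3, 1 without knockout 2, control 1 or control 2, and 0 in a fit of the 6 libraries alone. Medians were 0.26 over 36 genes of complex I, 0.40 over 4 of complex II, 0.33 over 9 of complex III, 0.34 over 10 of complex IV and 0.28 over 15 of complex V. Summed, the list had 16688, 21117 and 21723 CPM in knockout livers, against 15176, 14737 and 18657 CPM in control livers, so that knockout 1 lay below control 3. At the other times the sums ran from 13453 to 20972 CPM in 21 knockout libraries and from 12500 to 20892 CPM in 21 control libraries.

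Xenobiotic genes moved in both directions. Of 43, 6 rose and 3 fell, with a median of 0.13. Beside the Cyp2a pair, Cyp2c55 (2.02 ± 0.36), Gstm2 (1.99 ± 0.39), Gstm3 (1.84 ± 0.40) and the sulfotransferase Sult1b1 (0.96 ± 0.22) rose. Beside Gsta1, Gsta4 (-1.47 ± 0.39) and Cyp3a13 (-1.07 ± 0.18) fell. Gstm2 and Gstm3 are glutathione transferases of the mu class and Gsta1 and Gsta4 of the alpha class. Within each class the genes are similar, and no label or header says how reads were divided between them.

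Lipid genes held few calls, to be read beside the 1.35% of all genes tested called higher and 1.32% called lower. Cyp8b1, the sterol 12α-hydroxylase that sets the cholic acid share of bile acids, had 607, 540 and 573 CPM in knockout livers, against 61.1, 193 and 267 CPM in control livers (1.72 ± 0.39, adjusted p = 0.00815). Control 1 was the lowest, and without it the value was 1.32 (adjusted p = 0.0821). The Cyp8b1 call was also lost in a fit of the 6 libraries alone, without or with a block for replicate number (adjusted p up to 0.326). It was the only call among 21 bile acid genes tested (median 0.06), where Cyp7a1, the rate-limiting enzyme, had -0.86 ± 0.56 without a call. Of 30 genes of fatty acid oxidation and PPARα targets, 0 rose and 2 fell (median -0.05), among them the peroxisomal thiolase Acaa1b with 464, 539 and 661 CPM in knockout livers and 1531, 1142 and 1794 CPM in control livers (-1.42 ± 0.26, adjusted p = 0.000635). In lipogenesis 1 of 25 fell (Scd2, -0.95 ± 0.21, at 2.78 to 4.49 CPM in knockout livers and 4.79 to 8.54 CPM in control livers), and in cholesterol synthesis 1 of 26 fell (Pmvk, a mevalonate pathway kinase, -1.05 ± 0.28). The Pmvk call was lost without any single library, and the Scd2 call without knockout 1 or control 1 or 2. Scd1, the main liver desaturase, had -0.90 ± 0.46 without a call.

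Many acute-phase genes fell in knockout livers, and the control libraries differed among themselves in them. Of 26 acute-phase and inflammation genes, 11 fell and 1 rose, 24 had a negative log2 fold change, and the median was -1.12. The genes that fell were Saa4, Orm1, Orm2, Orm3, Hp, Lcn2, Fga, Fgb, Fgg, Itih4 and Cxcl1, and the one that rose was Cp, ceruloplasmin (0.53 ± 0.12, adjusted p = 0.00815). The acute-phase response is the change in secreted liver proteins that inflammatory signals such as interleukin 6 set off.

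The 3 fibrinogen chains of blood clotting fell together. Fgb had 4942, 5166 and 5839 CPM in knockout livers, against 9556, 11040 and 6446 CPM in control livers (-0.76 ± 0.17, adjusted p = 0.00576). Fga (-0.74 ± 0.19, adjusted p = 0.0185) and Fgg (-0.62 ± 0.17, adjusted p = 0.0349) had similar values. Itih4, an acute-phase inhibitor heavy chain, had 1563, 1475 and 1414 CPM in knockout livers and 4538, 3487 and 2228 CPM in control livers (-1.20 ± 0.20, adjusted p = 0.000185). Saa4, the constitutive serum amyloid A, had 232, 191 and 222 CPM in knockout livers and 989, 836 and 461 CPM in control livers (-1.83 ± 0.23, adjusted p = 1.51e-06). In each of these genes control 3 was the lowest control and still above every knockout library, apart from Fgg, where knockout 3 had 4893 CPM and control 3 had 4717 CPM.

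The inducible members were farther apart between controls. Orm2, an orosomucoid (mm9 chr4:63023483-63026911, plus strand), had 49.7, 31.1 and 23.1 CPM in knockout livers, against 577, 434 and 60.6 CPM in control livers (-3.37 ± 0.58, adjusted p = 0.000415). Lcn2, lipocalin 2, had 17.7, 7.11 and 9.37 CPM in knockout livers and 217, 256 and 22.04 CPM in control livers (-3.86 ± 0.99, adjusted p = 0.0244). Cxcl1, a neutrophil chemokine, had 4.11, 4.70 and 6.15 CPM in knockout livers and 59.1, 117 and 4.31 CPM in control livers, so that the groups overlapped (-3.59 ± 0.77, adjusted p = 0.00549). Controls 1 and 2 were high and control 3 was near the knockout libraries. The serum amyloid genes Saa1 and Saa2 had the same layout with knockout 1 raised as well, and were not called: Saa1 had 358, 19.5 and 27.7 CPM in knockout livers and 3209, 1849 and 109 CPM in control livers (adjusted p = 0.0762). The signal factors Stat3 (-0.70 ± 0.22) and Socs3 (-1.47 ± 0.52) had negative values without a call, and Il6ra had -0.01 ± 0.55.

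Summed over the list, acute-phase RNA was 31746, 28180 and 30137 CPM in knockout livers, against 64180, 65967 and 35221 CPM in control livers. At the other 7 times the sum ran from 18245 to 35409 CPM in 21 knockout libraries and from 18060 to 37714 CPM in 21 control libraries. Controls 1 and 2 at ZT 16 were thus above all 42 of these, while control 3 and the 3 knockout livers lay within their range. The number of members called lower was 17 without control 3, 6 without control 1, 5 without control 2, 7 to 9 without 1 of the knockout libraries and 2 in a fit of the 6 libraries alone. The falls in Lcn2, Cxcl1, Orm3, Fga and Fgb were lost in 2 or more of these, and in the last Orm2 was not called either (adjusted p = 0.240). Neutrophil and monocyte markers summed to 3.53, 4.27 and 6.15 CPM in knockout livers and 9.93, 5.81 and 6.17 CPM in control livers, with Ly6g at 0 in all 6 libraries; Kupffer cell markers summed to 427, 641 and 517 CPM in knockout livers and 653, 597 and 726 CPM in control livers. Their part in the result was not tested, and in bulk tissue fewer cells of a type and less RNA per cell cannot be told apart.

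**Figure D3:**
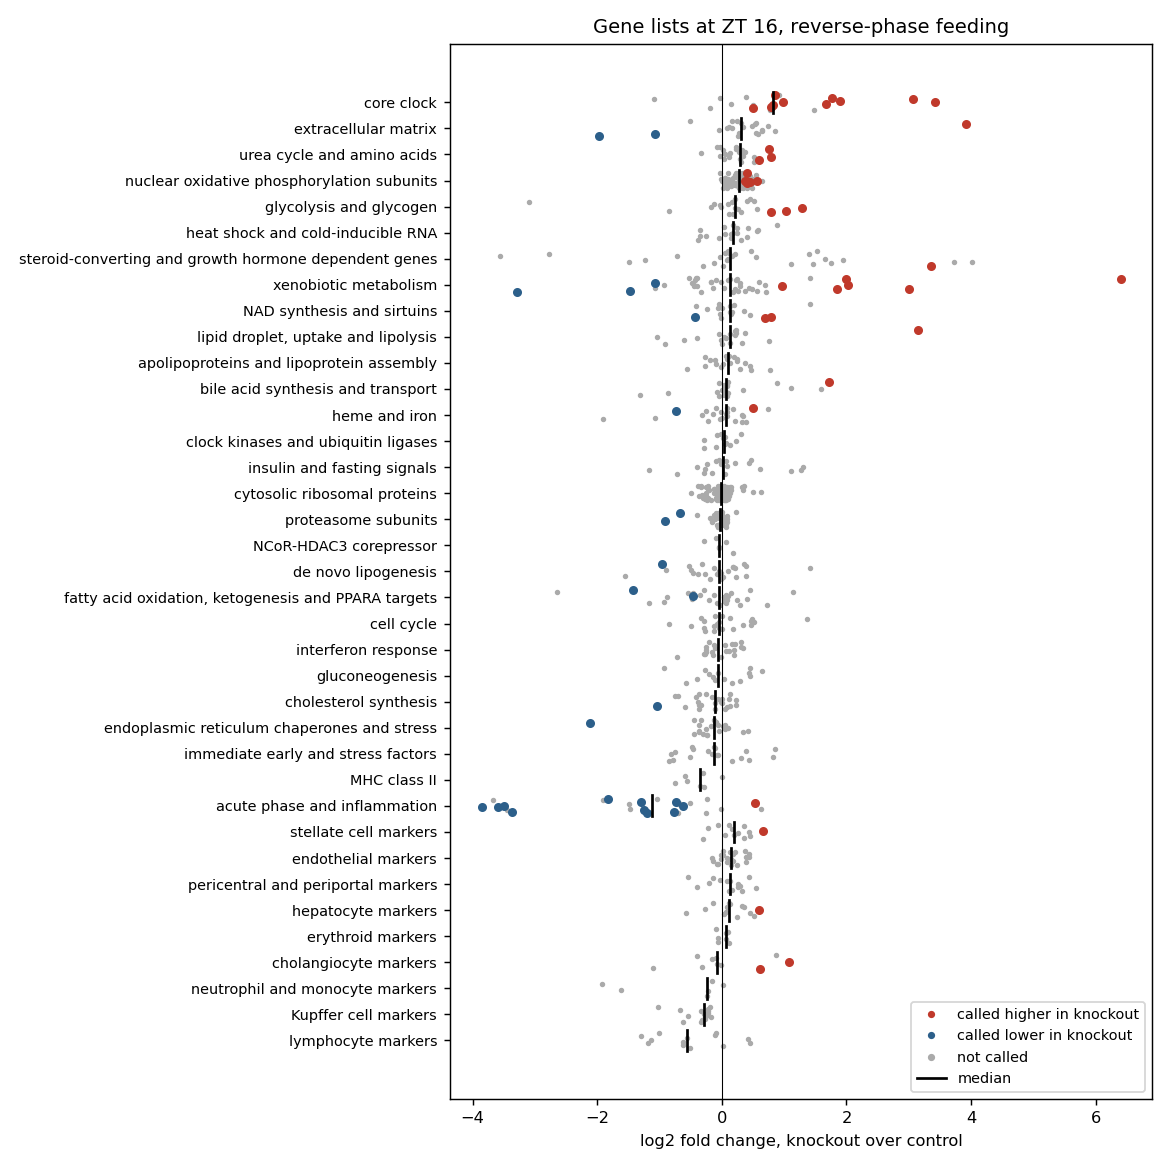
Log2 fold changes of knockout over control for the tested members of each gene list, 1 point a gene, with a black bar at the list median and called members in colour. Core clock points lie mostly right of 0 (median 0.82), acute-phase points left of it (median -1.12), and oxidative phosphorylation points in a narrow band right of 0 (median 0.27).

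Other lists held 3 calls or fewer, where 2.66% of all genes tested were called. The stress gene Chac1, a glutathione-degrading enzyme, fell at low counts (-2.12 ± 0.58) as the only call among 25 endoplasmic reticulum genes, and the immunoproteasome subunits Psmb8 (-0.91 ± 0.18, adjusted p = 0.00150) and Psmb10 (-0.67 ± 0.19, adjusted p = 0.0415) fell among 34 proteasome genes. In heme and iron, the heme enzyme Uros rose (0.49 ± 0.13) and the zinc and iron carrier Slc39a14 fell (-0.73 ± 0.20). Among 23 matrix genes, Col27a1 (-1.97 ± 0.48) and the protease Mmp14 (-1.08 ± 0.30) fell beside the rise of Loxl4. The calls of Chac1, Psmb10, Uros, Slc39a14, Col27a1 and Mmp14 were lost without 2 or more of the libraries left out in turn. Interferon, heat shock, immediate early, cell cycle, ribosomal protein, insulin and fasting, and apolipoprotein lists held no call. Over all 17 lists without a call, marker lists included, 30 of 316 members had an unadjusted p under 0.05 in edgeR, and DESeq2 called 6. Of these 6, 2 were among the 15 gluconeogenesis genes and 3 among the 20 insulin and fasting genes. Among all 13814 genes tested, 1736 had an unadjusted p under 0.05 in edgeR, and DESeq2 called 473.

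Marker lists of liver cell types held few calls, where 2.66% of all genes tested were called. None of the endothelial, Kupffer, neutrophil and monocyte, lymphocyte, erythroid, or pericentral and periportal markers was called. All 16 Kupffer markers had negative values (median -0.28), and 16 of 22 endothelial markers positive ones (median 0.14). Of 10 cholangiocyte markers 2 rose, Sox9 (1.08 ± 0.31, adjusted p = 0.0476) among them, while Krt19, a defining marker, had 2.32, 1.64 and 2.58 CPM in knockout livers and 1.05, 4.86 and 1.02 CPM in control livers. The summed list had 76.3, 91.5 and 124 CPM in knockout livers and 66.6, 173 and 51.5 CPM in control livers, with control 2 the highest. Reln, made by stellate cells, was the only call among 13 stellate markers (0.65 ± 0.18, adjusted p = 0.0346). The Sox9 and Reln calls were each lost without 5 of the 6 libraries left out in turn.

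To ask where ZT 16 stands in the day, the knockout effect at this time was set against the mean knockout effect of the other 7 times in the same fit. The difference was called for 49 of 13814 genes (0.355%), 21 positive (0.152%) and 28 negative (0.203%). Both contrasts use the same 6 libraries of ZT 16. At the single times, 1.56% (ZT 13) to 5.39% (ZT 1) of genes were called between knockout and control, with 2.66% at ZT 16.

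In control livers ZT 16 was a time of low Dbp and raised Npas2. Dbp averaged 90.3 ± 28.7 CPM in knockout livers and 8.36 ± 5.41 CPM in control livers at ZT 16 (SD, n = 3 each), and 124 ± 22.2 CPM in knockout livers and 109 ± 41.3 CPM in control livers at ZT 22. Its effect at ZT 16 exceeded the mean of the other times by 2.06 ± 0.47 on the log2 scale (adjusted p = 0.0378), and Tef's by 0.84 ± 0.20 (adjusted p = 0.0446). For Dbp this is less than the effect of 3.42 at ZT 16, so the mean effect of the other times was positive too. The Dbp difference was called in 6 of 13 alternatives (adjusted p up to 0.213) and Tef's in 5 (up to 0.190), and Tef's was lost without any single library of ZT 16. Npas2 averaged 17.8 ± 2.37 CPM in knockout livers and 4.82 ± 0.688 CPM in control livers at ZT 16, against 22.6 ± 1.29 CPM in knockout livers and 0.223 ± 0.0877 CPM in control livers at ZT 4. Control means of Npas2 were above 4 CPM only from ZT 10 to ZT 16, and its difference of effects was -2.35 ± 0.27 (adjusted p = 1.37e-06).

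Outside the clock, the cell cycle gene Wee1 (1.51 ± 0.28), Cyp2a5 (1.47 ± 0.28), the mitochondrial carrier Slc25a47 (1.22 ± 0.26), Fnip2 (1.16 ± 0.25) and Gys2 (0.72 ± 0.16) had effects at ZT 16 above the mean of the other times. At ZT 16 itself the effects of Wee1 (0.52 ± 0.27), Slc25a47 (0.61 ± 0.25) and Fnip2 (0.52 ± 0.23) were not called. Gys2 averaged 132 ± 9.78 CPM in knockout livers and 76.1 ± 8.13 CPM in control livers at ZT 16, and 88.8 ± 8.63 CPM in knockout livers and 81.9 ± 11.7 CPM in control livers at ZT 13. The cell cycle inhibitor Cdkn1a had an effect of -0.05 ± 0.50 at ZT 16 and a difference of -2.47 ± 0.55. At ZT 1 it averaged 98.4 ± 32.1 CPM in knockout livers and 4.65 ± 1.45 CPM in control livers. On the log2 scale its effect was 4.40 at ZT 1, 4.46 at ZT 4, 2.56 at ZT 7 and 1.80 at ZT 19. It was 0.33 at ZT 10 and -0.55 at ZT 13. Loxl4 (-1.50 ± 0.26), Armcx4 (-2.09 ± 0.38), Scd2 (-1.02 ± 0.22) and the transsulfuration enzyme Cbs (-0.80 ± 0.17) also had effects at ZT 16 below the mean of the other times. At ZT 16 itself Loxl4 rose (3.93 ± 0.26) and Cbs had 0.32 ± 0.16 without a call, while Armcx4 (-2.00 ± 0.35) and Scd2 (-0.95 ± 0.21) fell.

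Of the acute-phase list, 7 members had a called negative difference and 0 a positive one. Fgb averaged 5316 ± 467 CPM in knockout livers and 9014 ± 2344 CPM in control livers at ZT 16, and 5249 ± 33.8 CPM in knockout livers and 5073 ± 467 CPM in control livers at ZT 19 (difference of effects -0.92 ± 0.18, adjusted p = 0.00994). Orm2 averaged 34.7 ± 13.6 CPM in knockout livers and 357 ± 267 CPM in control livers at ZT 16, and 18.9 ± 3.04 CPM in knockout livers and 38.7 ± 7.75 CPM in control livers at ZT 19 (-2.73 ± 0.59, adjusted p = 0.0266). For Cxcl1 the difference was -4.02 ± 0.82 (adjusted p = 0.0166), for Itih4 -1.07 ± 0.21 (adjusted p = 0.0122) and for Fga -0.91 ± 0.20 (adjusted p = 0.0266). The count of 49 rested on few libraries: it was 3 without knockout 2, 6 without control 1, 8 without control 2, 17 without knockout 3, 20 without knockout 1 and 63 without control 3. Npas2 was called in all 13 alternatives, Loxl4 in 12 and Armcx4 in 11, and the other genes named for this difference in 5 to 9.

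**Figure D4:**
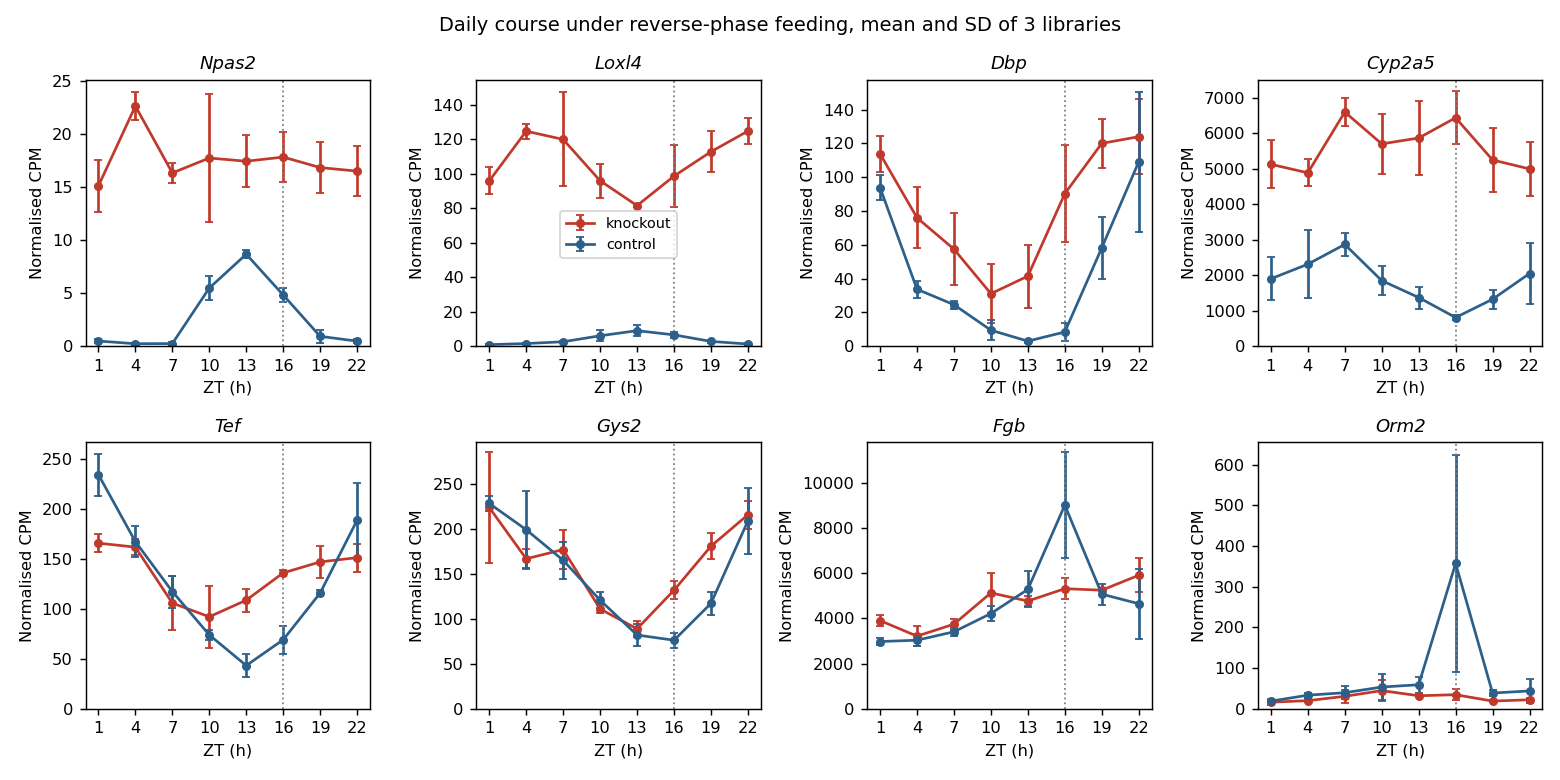
Mean normalised CPM with SD (n = 3) by ZT under reverse-phase feeding in knockout and control livers for 8 named genes, with ZT 16 marked by a dotted line. Control means of Tef stand at 234 CPM at ZT 1 and 69.0 CPM at ZT 16, and the control means of Orm2 and Fgb peak at ZT 16 with wide SD.

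The same time under ad libitum feeding gives the knockout effect with the usual schedule, from 6 other libraries of 6332810.5 to 10366906.5 counts. One of them, ad libitum control 2, stood 3.37 median absolute deviations below the other ad libitum livers in the slope of expression on transcript length. There, 420 of 12536 genes were called (3.35%), 206 higher (1.64%) and 214 lower (1.71%). Both schedules gave a test for 12490 genes, and 105 of them passed it in each, with the same sign in every case: 29.2% of the 360 called under reverse-phase feeding, where 3.36% of all were called ad libitum, and 25.0% of the 420 called ad libitum, where 2.88% of all were called under reverse-phase feeding. The effect differed between the schedules for 16 of 13538 genes (0.118%), 6 positive (0.0443%) and 10 negative (0.0739%), in a joint fit of 96 libraries. Without ad libitum control 2 these counts were 308 for the ad libitum effect and 12 for the difference. Other differences between the tables, depth among them, cannot be told apart from feeding.

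Of the targeted genes, Nr1d1 ad libitum had 39.2, 30.6 and 48.9 CPM in knockout livers and 5.37, 10.3 and 2.58 CPM in control livers. Its groups did not overlap, and the log2 fold change of 2.71 ± 0.33 was called (adjusted p = 7.11e-07), against 0.91 ± 0.29 under reverse-phase feeding, with a difference of -1.79 ± 0.45 that was not called (adjusted p = 0.0841). Several other genes had effects of similar size under both schedules. Lpl had a log2 fold change of 3.14 under reverse-phase and 3.08 under ad libitum feeding, Cyp17a1 3.36 and 3.24, Nr1d2 0.82 and 0.99, and Arntl 0.85 and 1.02, and none of these differences was called. Dbp rose under both schedules, by 3.42 ± 0.46 under reverse-phase and 1.77 ± 0.38 under ad libitum feeding (adjusted p = 0.00363 ad libitum). The Dbp difference of 1.66 ± 0.60 was not called (adjusted p = 0.478).

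Npas2 had the most negative difference among the named genes. Ad libitum it had 18.5, 20.6 and 24.5 CPM in knockout livers, against 0.298, 0.171 and 0 CPM in control livers, so the knockout level was near that of reverse-phase-fed livers and the control level far lower. The difference of the effects was -5.07 ± 0.62 (adjusted p = 9.44e-08), which rests on a fitted value for near-zero controls. Cbs ad libitum had 613, 525 and 701 CPM in knockout livers and 255, 226 and 217 CPM in control livers; under reverse-phase feeding it had 714, 685 and 649 CPM in knockout livers and 558, 523 and 555 CPM in control livers (difference -1.07 ± 0.20, adjusted p = 0.00270).

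Gys2 had effects of opposite sign under the schedules. Ad libitum it had 162, 173 and 162 CPM in knockout livers and 231, 269 and 211 CPM in control livers (-0.51 ± 0.16, not called), and the difference of the effects was 1.31 ± 0.23 (adjusted p = 0.00107). Cyp2a5 ad libitum had 4713, 4373 and 5432 CPM in knockout livers and 1812, 3162 and 2565 CPM in control livers (difference 2.06 ± 0.42, adjusted p = 0.0118), and Cyp2a4 had a difference of 5.27 ± 1.03 (adjusted p = 0.00542). Ndufaf4, an assembly factor of complex I, had 0.65 ± 0.15 under reverse-phase and -0.20 ± 0.12 under ad libitum feeding (difference 0.86 ± 0.20, adjusted p = 0.0380). Oxidative phosphorylation genes, with 6 rises of 74 above, held 0 calls ad libitum, with a median of -0.01 over 73 tested. No difference between the schedules was called in the list. Summed, the list had 12252, 11885 and 13561 CPM in knockout livers and 11784, 14094 and 10886 CPM in control livers ad libitum. Ad libitum sums at the other times ran from 10934 to 13585 CPM in knockout and from 9843 to 12311 CPM in control libraries. Control 2, the ad libitum library that stood apart in length slope, was thus above all other ad libitum controls. Its part in the median was not tested.

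In the acute-phase list, 2 of 24 tested were called higher and 5 lower ad libitum, with a median of -0.26. Fgb ad libitum had 4494, 3999 and 3922 CPM in knockout livers and 3450, 3271 and 2966 CPM in control livers, a positive log2 value of 0.36 ± 0.13 without a call (difference -1.11 ± 0.21, adjusted p = 0.00335). Fga (-1.06 ± 0.22, adjusted p = 0.0122), Fgg and Itih4 (-1.11 ± 0.26, adjusted p = 0.0380) made up the 4 called negative differences of the list, and 0 were positive. Summed, the list had 27066, 23532 and 26017 CPM in knockout livers and 26660, 27366 and 22946 CPM in control livers ad libitum, without the high sums of reverse-phase controls 1 and 2. The differences of Npas2, Gys2 and Cbs were called in all 18 alternatives. The Fgb difference was lost without reverse-phase control 2 (adjusted p = 0.0510), and the count of 16 ranged from 6 without ad libitum knockout 1 to 30 without reverse-phase control 3.

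**Figure D5:**
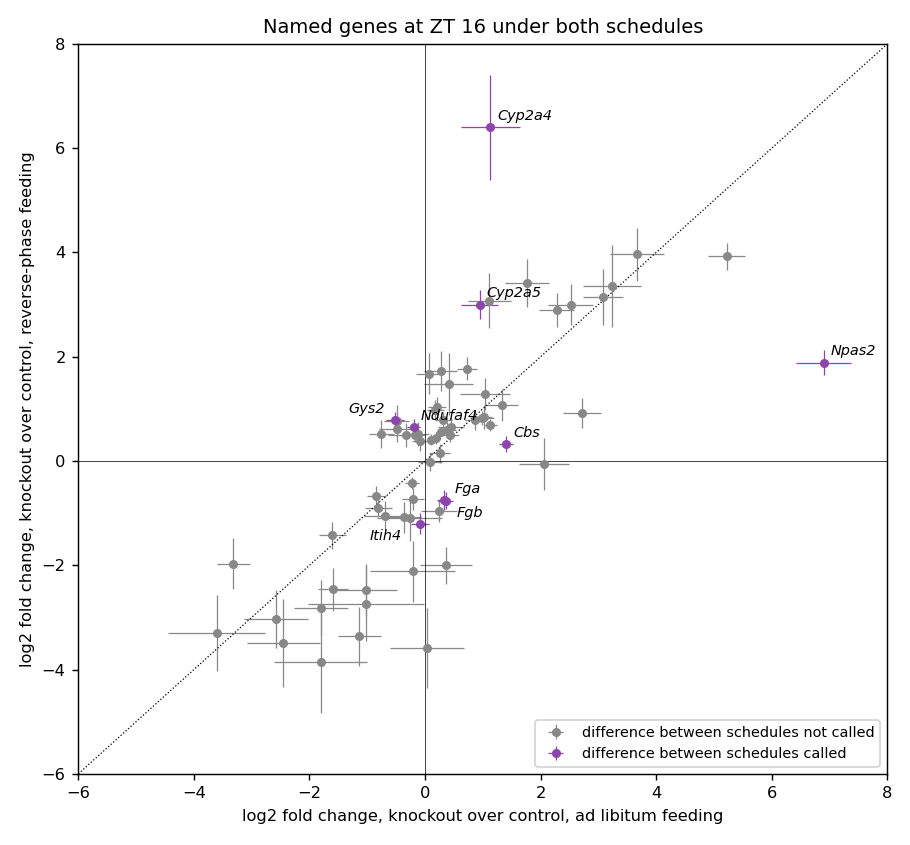
Log2 fold change of knockout over control at ZT 16 for the named genes under reverse-phase feeding (vertical) and ad libitum feeding (horizontal), with SE bars and a dotted line of equal effects. Genes whose difference between schedules was called are labelled: Cyp2a4, Cyp2a5 and Gys2 lie above the line, and Npas2, Cbs and Fgb below it.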

How the data were processed

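Whole-liver RNA was measured by RNA-seq. The deposited values are expected counts for each transcript, made by the authors with STAR, HOMER and the mm9 genome per the submitters' processing notes, with no versions; aligner settings, strandedness and the treatment of multimapping reads are not known here. The values move in steps of 0.5 (31.9% of reverse-phase and 29.5% of ad libitum values are not whole), so they were rounded to whole counts. Of 34600 transcript rows, the one with the largest mean CPM over 96 liver libraries was kept for each of 24421 symbols.

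Tests used edgeR 4.0.16 in R 4.3.3 (quasi-likelihood, TMM, filterByExpr by group, robust) with Benjamini-Hochberg adjustment over all genes tested. The knockout effect at ZT 16 and its difference from the mean of the other 7 times came from 48 reverse-phase libraries in 16 groups, the ad libitum effect from the 48 ad libitum libraries, and the difference between schedules from 96 libraries in 32 groups. A standard error is the log2 fold change divided by the square root of F. No genes or samples were imputed. Replicates differed by more than counting noise (chi-square per gene 19.0 to 61.0 at a minimum count of 20), and no library was counted as a repeat of another. Statistics were tested on simulated data.

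Members and lists were chosen with earlier results of these data known. Genes are named by a rule: Nr1d1 and Nr1d2, all core clock genes, the called genes with the 10 highest and the 10 lowest log2 fold changes whose log2 CPM averaged 1 or more, up to 3 called members of each list, and the 5 largest called differences each way in both difference contrasts. A few genes that the rule names are counted in the totals and not reported here. The other acute-phase, xenobiotic, lipid, oxidative phosphorylation and marker genes given with values were chosen from the lists after their values were seen. Promoters are RefSeq's on GRCm38.p6. Alternatives were DESeq2 1.42.0 (test, or size factors alone), other filters on low genes, the longest transcript, a replicate block, the 6 libraries alone, a fold minimum of 1.5, ZT 4 as the only other time, and each ZT 16 library left out. Tables and figures used Python 3.11.15, pandas 2.3.3, numpy 2.4.6 and matplotlib 3.10.9.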

Additional observations from a re-analysis of the deposited data

Results flagged for a closer look

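The knockout effect of 18 named genes at ZT 16 differed from the mean effect of the other 7 times, by the test of that difference in edgeR. On the log2 scale, the clock genes Npas2 (-2.35), Dbp (2.06) and Tef (0.84) were among them. The acute-phase genes Cxcl1 (-4.02), Orm2 (-2.73), Itih4 (-1.07), Fgb (-0.92) and Fga (-0.91) had more negative effects at ZT 16, and their control libraries 1 and 2 were high at that time. Wee1 (1.51), Cyp2a5 (1.47), Slc25a47 (1.22), Fnip2 (1.16) and Gys2 (0.72) had knockout effects at ZT 16 above the mean of the other times. Cdkn1a (-2.47), Armcx4 (-2.09), Loxl4 (-1.50), Scd2 (-1.02) and Cbs (-0.80) had knockout effects below that mean. Of the 18, Npas2 passed the test in all 13 alternatives, Loxl4 in 12 and Armcx4 in 11. Cyp2a5 and Wee1 passed in 9, Itih4 and Fgb in 8, Orm2, Scd2, Slc25a47, Fnip2, Cdkn1a and Cbs in 7, Dbp, Cxcl1, Gys2 and Fga in 6 and Tef in 5.

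For 9 named genes the knockout effect at ZT 16 differed between reverse-phase and ad libitum feeding, by the test of that difference. The values, reverse-phase minus ad libitum, were -5.07 for Npas2, 5.27 for Cyp2a4, 2.06 for Cyp2a5, 1.31 for Gys2, 0.86 for Ndufaf4, -1.11 for Itih4, -1.11 for Fgb, -1.07 for Cbs and -1.06 for Fga. Npas2, Gys2 and Cbs passed in all 18 alternatives, Fgb in 17, Cyp2a4 in 16, Cyp2a5 in 14, Fga in 13, Ndufaf4 in 10 and Itih4 in 9.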

How the results depend on the processing

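The 368 genes called between knockout and control under reverse-phase feeding became 356 with DESeq2 size factors, 302 with no filter, 390 with a mean of at least 1 CPM, 359 with the longest transcript, 473 with the DESeq2 test, which include all 368, and 158 in a fit of the 6 libraries alone (83 higher, 75 lower). With a fold of at least 1.5, 118 rises remained. With 1 library left out the count ran from 182 to 339, with 96 to 162 higher and 85 to 177 lower. The 49 differences from the other times became 31 with no filter, 106 with DESeq2, 27 against ZT 4 alone and 3 to 63 with 1 library left out. The 16 differences between schedules became 34 with DESeq2 and 6 to 30 with 1 library left out. The 420 ad libitum calls became 181 in a fit of 6 libraries and 279 to 399 with 1 library left out. The cause was not tested. With 1 library of a group left out, the spread comes from all groups of the fit.

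Whether the replicate numbers pair the libraries is not known. The deviations of same-numbered knockout and control libraries correlated at 0.0963, -0.0766 and 0.3809, and those of different-numbered ones at -0.362 to 0.3162. So few values cannot decide it, and a replicate block is a check of sensitivity. With the block within each time, 286 genes were called (265 shared with the fit without it), 33 differed from the other times (24 shared), 14 between schedules (13 shared) and 399 ad libitum (348 shared). With the block and the 6 libraries alone, 258 genes were called under reverse-phase feeding and 90 ad libitum. Acute-phase members called lower were 6 with the block, 5 with the block in the 6 libraries alone and 15 with DESeq2. Oxidative phosphorylation genes called higher were 1 with the block.

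Of 59 called named genes, 16 were called under all 14 alternatives, 43 were lost in 1 or more and 0 changed sign. Signs turned in 3 uncalled genes. The log2 fold change of Cdkn1a, reverse-phase feeding, was 0.066 with the replicate block, 0.0738 with it in the 6 libraries alone, and -0.54 to 0.73 with 1 library left out. Clock ran from -0.0304 to 0.27 and Rora from -0.14 to 0.0896 with 1 library left out. DESeq2 size factors moved the median of all log2 fold changes to 0.0058.

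Limits are the 3 libraries a group, the spread of controls in acute-phase genes, and in the ad libitum table fewer counts, at which low genes such as control Npas2 are near 0.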
